A study of Mus musculus with 24 samples.

Results

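The extracellular matrix of mouse adipose tissue was followed here through the genes of its secreted proteases and their inhibitors: the matrix metalloproteinases (Mmp), the disintegrin and metalloproteinases with thrombospondin motifs (Adamts) and the tissue inhibitors of metalloproteinases (Timp). The members were all protein-coding genes with an Mmp, Adamts or Timp1 to Timp4 symbol, matched by name from the Ensembl identifiers of the count tables. These were 45 of 49585 gene identifiers, made up of 22 Mmp, 19 Adamts and 4 Timp genes.

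Matrix metalloproteinases are zinc-dependent enzymes that are made as inactive precursors and that cleave collagens, elastin, fibronectin and proteoglycans once activated, some of them while anchored in the cell membrane. ADAMTS enzymes are secreted, bind the matrix through thrombospondin repeats and divide into procollagen processing enzymes, proteoglycan-cleaving enzymes and others with few known substrates. TIMP proteins block the active site of these enzymes. In fat, the matrix around each adipocyte is rebuilt as the cell enlarges, and macrophages, fibroblast-like progenitors and adipocytes contribute different members of these families.

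RNA sequencing of whole adipose tissue from male mice gave 24 libraries in 6 groups. In the first experiment, C57BL/6J mice ate a high-fat diet (60% of kcal from fat) or a low-fat diet (10% of kcal from fat) for 20 weeks, and subcutaneous adipose tissue (SAT) was taken from both (4 libraries each). In the second experiment, mice without Azin2, a regulator of polyamine synthesis (Azin2-/-), and their wild-type littermates all ate the high-fat diet (60% of kcal from fat) for 8 weeks, and SAT (3 Azin2-/- and 5 wild-type libraries) and epigonadal adipose tissue (GAT, 4 libraries per genotype) were taken. There was therefore no low-fat group in the second experiment, and no Azin2-/- group in the first. The labels used here do not say which part of Azin2 is deleted, give no age, and do not say beyond animal numbers or marks that the libraries of a group come from separate animals, so that p-values measure the spread between libraries.

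Total counts per library were 31.96 to 46.62 megareads. Azin2 was lower in Azin2-/- than in wild-type libraries without overlap in both depots, at 6.73 to 11.5 CPM (counts relative to a library's sum) in Azin2-/- SAT against 14.6 to 26.0 CPM in wild-type SAT, and 12.7 to 19.8 CPM in Azin2-/- GAT against 22.9 to 26.6 CPM in wild-type GAT. The library labelled replicate 1 of low-fat SAT went against its label: the subcutaneous marker Hoxc10 was at 0.0469 CPM, against 25.5 to 31.5 CPM in low-fat replicates 3, 5 and 6, and 12 epididymis genes summed to 31394 CPM, against at most 0.847 CPM in those 3. Tbx15, also a subcutaneous marker, was at 0.117 CPM, against 18.1 to 40.1 CPM in those 3. The epigonadal marker Wt1 was at 3.03 CPM, against at most 0.134 CPM in those 3 and 5.25 to 29.2 CPM in GAT. The sum of 10 mesothelial markers was 433 CPM, against at most 11.5 CPM in those 3. Transcripts of skeletal muscle (16 markers) reached 77406 CPM in the second Azin2-/- SAT library, 69526 CPM in the third wild-type SAT library, 25054 CPM in replicate 5 of low-fat SAT and 7312 CPM in replicate 6 of high-fat SAT, and the epididymis genes reached 5777 CPM in the third wild-type GAT library. Adipocyte markers (10 genes) were lowest in that same low-fat replicate 1, at 14132 CPM, against 27667 to 51240.5 CPM in the remaining 23 libraries. Where a diet call or a count of calls changes without low-fat replicate 1, it is given both ways.

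The members lie on 17 chromosomes of the mouse genome (GRCm38), with 12 of them on chromosome 9. A run of 9 metalloproteinase genes (Mmp13, Mmp12, Mmp1b, Mmp3, Mmp10, Mmp8, Mmp27, Mmp20 and Mmp7) spans 427 kb at chr9:7272514-7699585, and it holds the genes with some of the widest differences reported below. Among the Adamts genes, Adamts1 and Adamts5 are 53.1 kb apart on chromosome 16, and Adamts8 and Adamts15 are 20.1 kb apart on chromosome 9. Timp1, Timp3 and Timp4 each lie inside a synapsin gene (Syn1, Syn3 and Syn2) on the opposite strand, and Adamts7, Mmp11 and Mmp19 overlap the ends of the expressed genes Tbc1d2b, Chchd10 and Tmem198b on the opposite strand. The sources used here do not say whether reads were counted by strand, so reads of these partners may be mixed.

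Promoter sequences are shown for 6 genes of the chromosome 9 run because Mmp12, Mmp3, Mmp13 and Mmp27 carry results below and their neighbours differ from them in level. Each window is the 110 bases directly before a RefSeq transcription start on the plus strand of GRCm38.p6, 5′ to 3′, with capitals marking the letters TGANTCA, the consensus that AP-1 factors are known to bind; the motif reads the same on both strands and was the only motif searched. The first base of the motif lies 35 bases before the start of Mmp13, 44 before that of Mmp12, 46 before that of Mmp3 and 63 before those of Mmp10 and Mmp7.
Mmp13: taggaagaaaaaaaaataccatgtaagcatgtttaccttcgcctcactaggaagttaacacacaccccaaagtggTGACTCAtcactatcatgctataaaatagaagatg
Mmp3: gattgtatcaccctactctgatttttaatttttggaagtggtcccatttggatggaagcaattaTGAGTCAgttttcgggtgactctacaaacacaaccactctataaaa
Mmp10: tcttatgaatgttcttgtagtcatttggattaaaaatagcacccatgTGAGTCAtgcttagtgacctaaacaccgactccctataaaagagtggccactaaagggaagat
Mmp12: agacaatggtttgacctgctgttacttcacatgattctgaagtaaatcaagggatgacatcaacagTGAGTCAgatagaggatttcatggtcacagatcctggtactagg
Mmp7: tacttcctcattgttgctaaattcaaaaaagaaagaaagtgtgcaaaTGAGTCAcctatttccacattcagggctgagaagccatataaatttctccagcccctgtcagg
Mmp27: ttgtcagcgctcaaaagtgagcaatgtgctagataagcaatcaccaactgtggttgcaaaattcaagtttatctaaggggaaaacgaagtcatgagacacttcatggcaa
The Mmp13 window is chr9:7272404-7272513, that of Mmp3 chr9:7445712-7445821, that of Mmp10 chr9:7502232-7502341, that of Mmp12, at the second of its RefSeq starts, chr9:7347264-7347373, that of Mmp7 chr9:7691980-7692089 and that of Mmp27, which has no match, chr9:7571286-7571395. Over the 250 bases before any of their RefSeq starts, 7 of the 9 genes in the run had the motif, against 0 of the 22 other members with a RefSeq promoter entry. Counted per entry and not per gene, 6.75% of all 32851 promoter entries had it. Mmp12 and Mmp7 each have another RefSeq start without the motif, and for Mmp12 that start is the one nearer to the annotated gene start. The match is a description of letters in these windows and does not show binding.

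Levels can be compared between genes only per length, in TPM (counts divided by exon length and scaled to the same total in each library). In every group the member with the highest mean was an inhibitor. Timp2, which also helps to activate the Mmp2 precursor, averaged 510.2 ± 93.8 TPM in Azin2-/- GAT, 394 ± 71.6 TPM in wild-type GAT, 209 ± 85.3 TPM in Azin2-/- SAT, 309 ± 41.4 TPM in wild-type SAT and 387 ± 18.1 TPM in high-fat SAT (SD, n = 3 to 5). In low-fat SAT the means of Timp4 (181 ± 114 TPM), Timp3 (175 ± 81.7 TPM) and Timp2 (156 ± 25.9 TPM) lay within their spread of one another, and their order was not separable, nor was that of Timp2 and Timp3 in Azin2-/- SAT (Timp3 207 ± 43.4 TPM) and in wild-type SAT (Timp3 274 ± 59.8 TPM). In low-fat replicates 3, 5 and 6 Timp3 was above Timp2 (246, 194 and 202 against 156, 180 and 168 TPM). Low-fat replicate 1 went the other way (57.0 against 120 TPM). Among the proteases, Adamts5, which cleaves aggrecan and versican, was the leading Adamts gene in all 6 groups (139 to 183 TPM), and Mmp2, a gelatinase, had the highest mean of the Mmp genes in the 4 SAT groups. It averaged 218 ± 13.0 TPM in high-fat SAT, whereas in low-fat SAT Mmp2 (76.3 ± 42.7 TPM) and Mmp28 (61.5 ± 28.1 TPM) lay within their spread, as did Mmp2 (118 ± 62.5 TPM) and Mmp19 (78.1 ± 33.4 TPM) in Azin2-/- SAT. Within each Azin2-/- SAT library, however, Mmp2 was above Mmp19 (183, 58.4 and 114 against 111, 43.9 and 79.9 TPM). The low-fat means include the library labelled replicate 1, the lowest of its group for Timp2, Timp3, Timp4, Mmp2 and Mmp28. Mmp2 was at 13.2 TPM there and at 89.3 to 107 TPM in low-fat replicates 3, 5 and 6. Mmp28 was at 22.8 TPM and 64.3 to 89.8 TPM in the same order. In Azin2-/- GAT the Mmp gene with the highest mean was Mmp12, the macrophage elastase, at 245 ± 98.1 TPM, and its mean was second of all members there. In Azin2-/- replicates 2, 3 and 4 it was below Timp2 only. In replicate 1 Mmp12 (133 TPM) was also below Adamts5 (215 TPM), Timp3 (209 TPM) and Timp4 (175 TPM). In wild-type GAT Mmp19 (79.0 ± 20.6 TPM), Mmp28 (77.8 ± 21.2 TPM), Mmp2 (77.1 ± 5.53 TPM) and Mmp12 (68.7 ± 46.7 TPM) lay within their spread, and no leading Mmp gene could be told. Mmp28, an epilysin known from skin and lung, kept to 61.5 to 77.8 TPM over the 6 group means. Of the 45 members, 15 averaged under 1 TPM in every group and 14 averaged 10 TPM or more in every group.

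**Figure D1:**
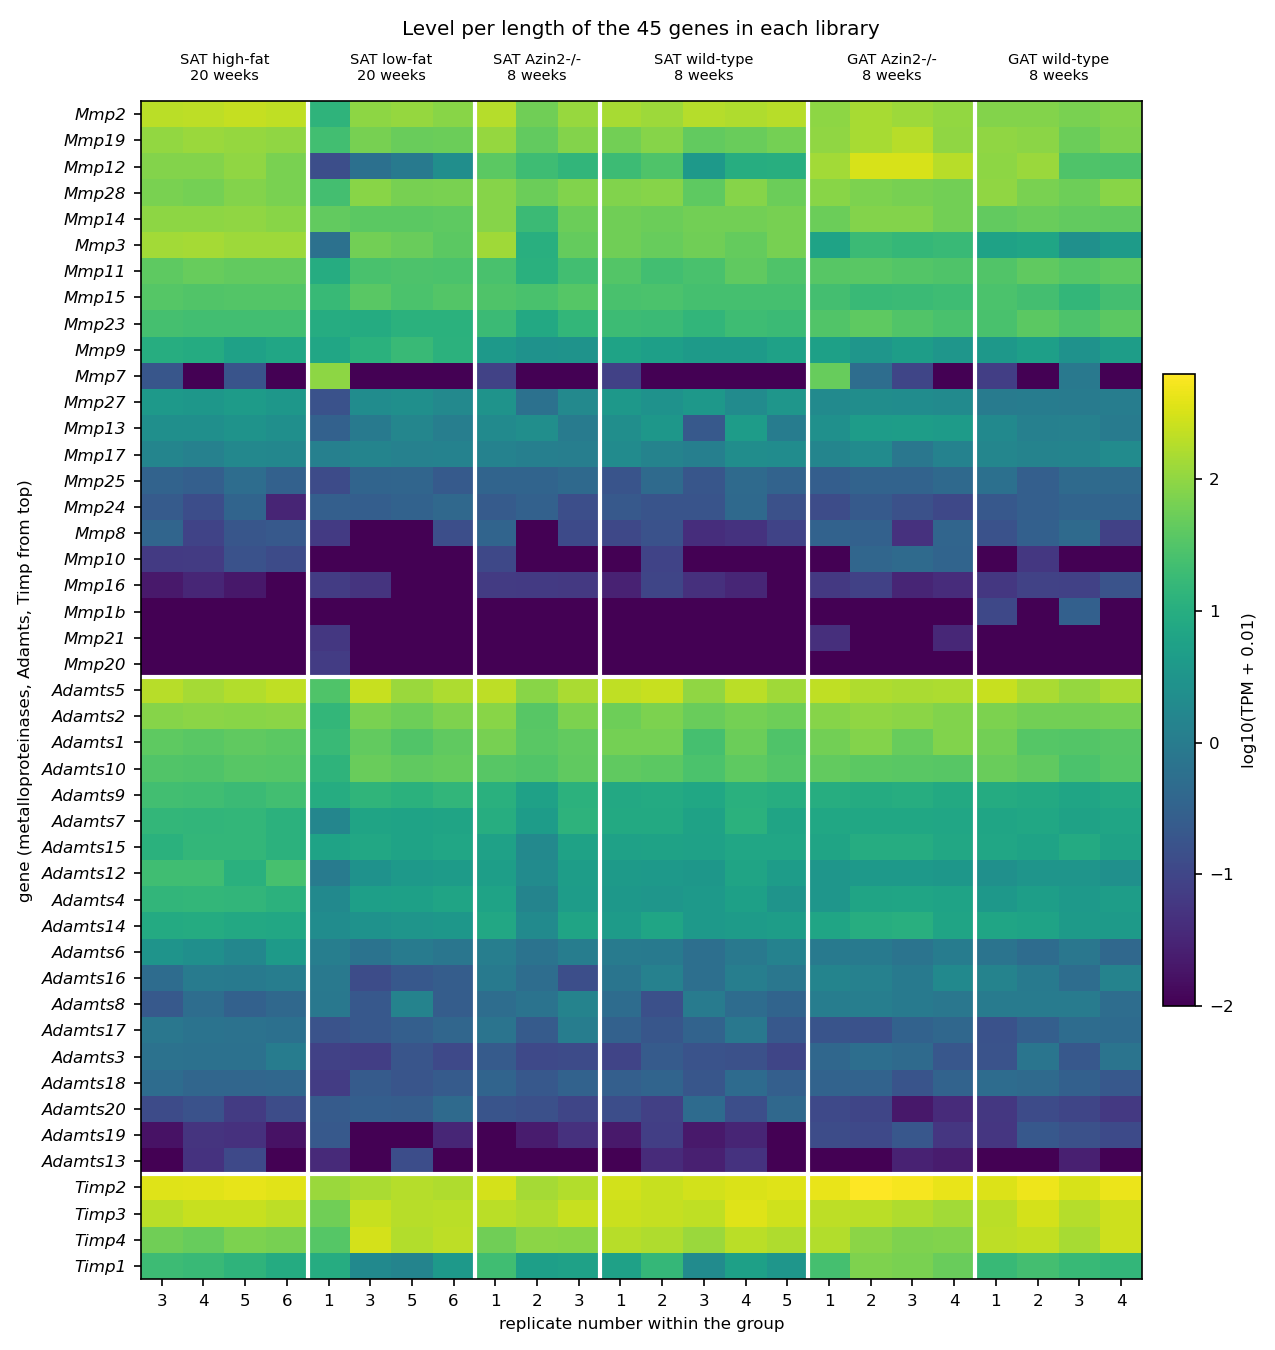
Level of the 45 members (rows, by family) in the 24 libraries (columns, by group), as log10 of TPM plus 0.01. The Timp genes, Mmp2, Mmp14, Mmp19, Adamts2 and Adamts5 were detected throughout, while most of the lowest rows are Mmp genes with few or no counts.

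**Figure D2:**
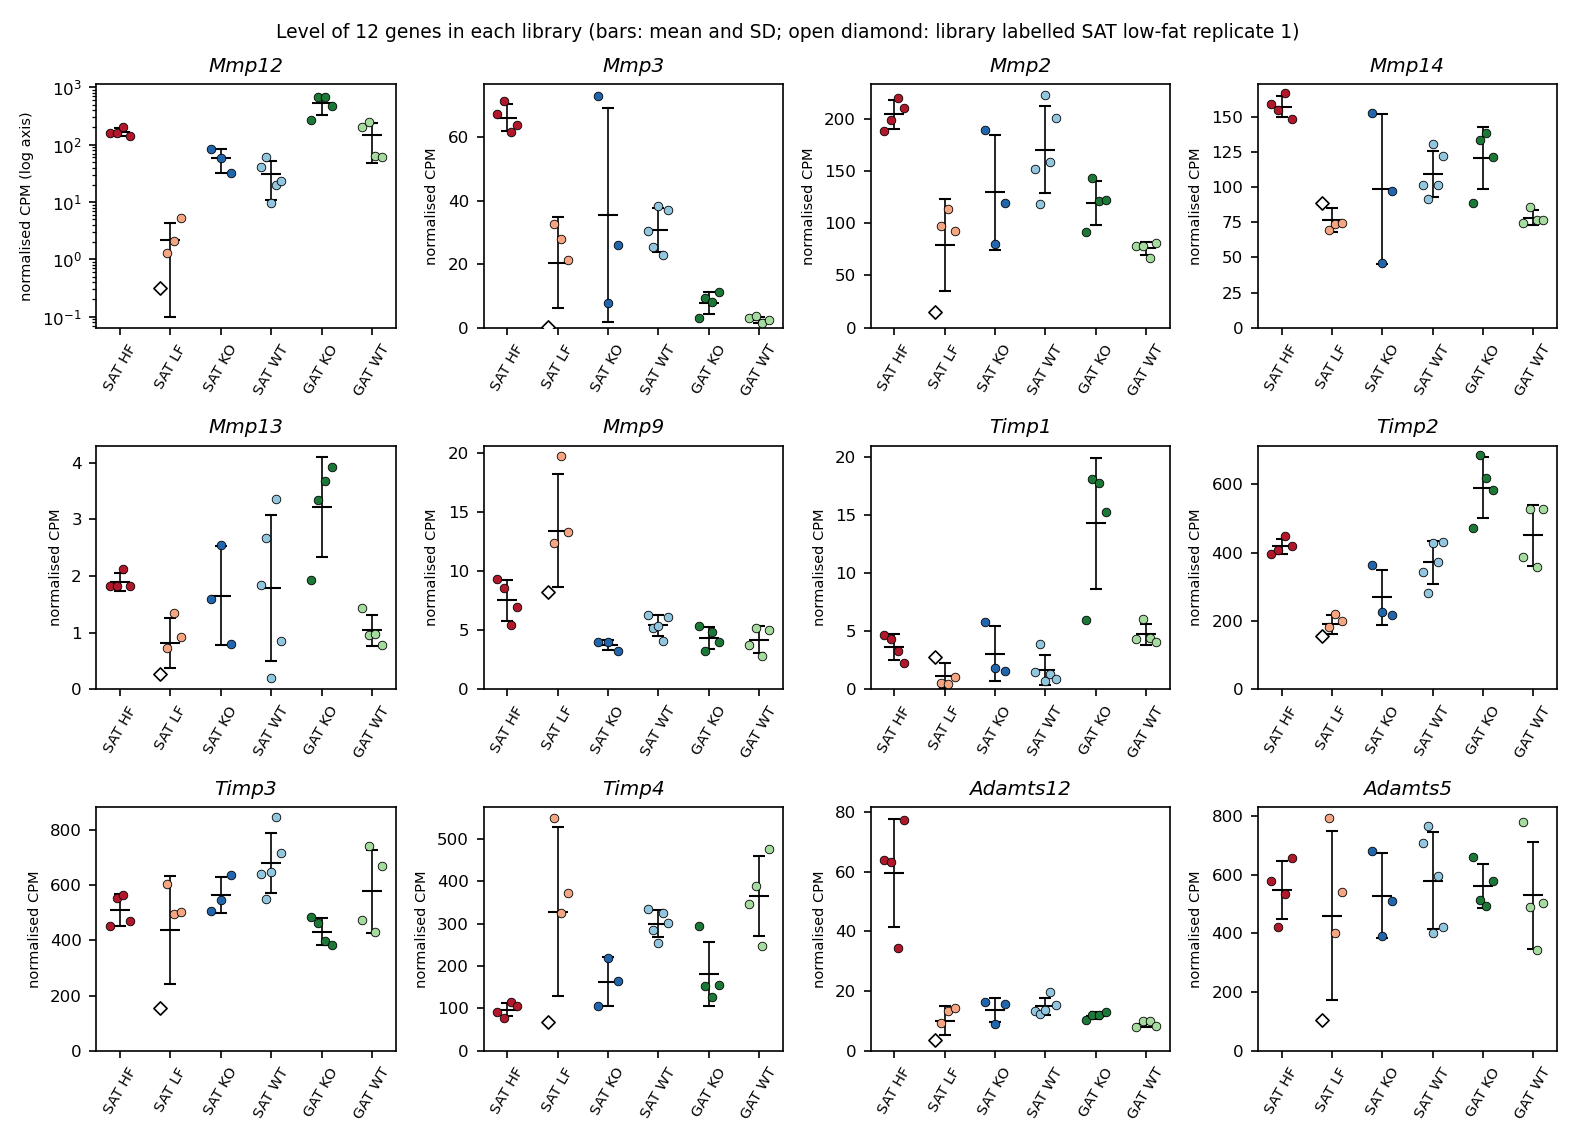
Normalised CPM of 12 members in each library, by group, with bars at the mean and SD; the Mmp12 axis is logarithmic and the open diamond is the library labelled replicate 1 of low-fat SAT. Mmp12 lies higher in all 4 high-fat SAT libraries than in all 4 low-fat ones, Mmp3 is lower in both GAT groups than in most SAT libraries, and Timp4 is lower in the high-fat SAT libraries than in 3 of the 4 low-fat ones.

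In SAT after 20 weeks, the high-fat diet was accompanied by higher expression of 14 of the 36 members that passed the low-count filter and lower expression of 1, by edgeR's quasi-likelihood test at an adjusted p (Benjamini-Hochberg, over all genes tested) under 0.05. Of all 17066 genes tested, 10.8% were called higher and 10.4% lower. The median log2 fold change (high-fat over low-fat) of the tested members was 0.97, and that of all tested genes was -0.09. By family, 9 of 17 tested Adamts genes, 4 of 15 Mmp genes and 1 of 4 Timp genes were called higher, and the gene called lower was Adamts20. The high-fat and low-fat libraries did not overlap for 21 members that were higher and 1 that was lower, against 17.6% and 16.0% of all genes. Without the library labelled replicate 1 of low-fat SAT, 23 members were called higher and 4 lower, with 23.5% of 17268 genes called in each direction. By family these were 12 Adamts genes higher and 2 lower, 9 Mmp genes higher and 1 lower, and 2 Timp genes higher and 1 lower. The count of members called was 8 without high-fat replicate 3, 9 without high-fat replicate 4 and 10 without high-fat replicate 6, where 10.7%, 10.3% and 11.6% of all genes were called. Mmp12, Mmp14, Mmp23, Timp2, Adamts12, Adamts14 and Adamts15 were among the members called in all 8 fits that left out 1 library.

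Among the enzymes of the chromosome 9 run, Mmp12 at chr9:7344381-7369499 had 161, 162, 203 and 139.8 normalised CPM (CPM after scaling of library sizes by the trimmed mean of M values) in the high-fat libraries, against 0.317, 1.28, 2.08 and 5.21 normalised CPM in the low-fat libraries, the first of which is the library labelled replicate 1 of low-fat SAT. The groups did not overlap, and the fold change was 74.4 (log2 6.22 ± 0.80 SE, edgeR adjusted p = 0.00249). Mmp3, a stromelysin that degrades proteoglycans and activates other precursors, had 67.2, 71.4, 61.6 and 63.9 normalised CPM in high-fat libraries, against 0.362, 32.6, 27.9 and 21.2 normalised CPM in low-fat libraries. All 4 high-fat libraries were higher, but the low-fat replicate 1 lay far below the other 3, and the edgeR adjusted p was 0.218 with that library and 0.000217 without it (log2 1.28 ± 0.14 SE). Mmp13, a collagenase, had 1.81, 1.82, 2.12 and 1.82 normalised CPM in high-fat libraries, against 0.271, 0.722, 1.34 and 0.919 normalised CPM in low-fat libraries. These groups did not overlap either; the log2 fold change was 1.21 (edgeR adjusted p = 0.0736) with all libraries and 0.93 (edgeR adjusted p = 0.0109) without low-fat replicate 1.

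The membrane-anchored Mmp14 and the gelatinases did not all go one way. Mmp14 (chr14:54431612-54445364), which activates the Mmp2 precursor at the cell surface, had 159, 155, 167 and 148 normalised CPM in high-fat libraries, against 88.8, 69.6, 73.7 and 74.4 normalised CPM in low-fat libraries. It rose 2.03-fold without overlap (log2 1.02 ± 0.11 SE, edgeR adjusted p = 0.00130). Its substrate Mmp2 (chr8:92827291-92853420) had 188, 198, 219.7 and 210.1 normalised CPM in high-fat libraries, against 14.9, 96.8, 114 and 92.3 normalised CPM in low-fat libraries. The groups did not overlap, and the call depended on low-fat replicate 1, with a log2 fold change of 1.36 and an edgeR adjusted p of 0.0980 with it and 1.01 and 5.40e-05 without it. Mmp9, the gelatinase of neutrophils and macrophages, had 9.28, 8.55, 5.39 and 6.94 normalised CPM in high-fat libraries, against 8.23, 12.4, 19.7 and 13.3 normalised CPM in low-fat libraries. Here the groups overlapped through low-fat replicate 1, and Mmp9 was lower without it (log2 -1.0 ± 0.23 SE, edgeR adjusted p = 0.00786), against 0.0681 with all libraries. The summed level of 10 neutrophil markers was 11.7 to 18.3 CPM in high-fat and 5.84 to 6.802 CPM in low-fat libraries. Of the 5 that were tested, 2 were called higher, and 2 higher and 1 lower without low-fat replicate 1. Ly6g, Camp and Mpo had no count in any high-fat library. Ly6g also had none in low-fat replicates 3, 5 and 6, and 1 count in low-fat replicate 1.

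Of the remaining metalloproteinases, Mmp23 (14.7 ± 0.545 normalised CPM in high-fat and 7.56 ± 1.04 in low-fat libraries, SD, n = 4 each) and Mmp19 (106 ± 7.56 in high-fat and 52.8 ± 18.9 in low-fat libraries) rose, by 0.95 and 0.99 on the log2 scale (edgeR adjusted p = 0.00224 and 0.0334). Mmp19 was called in only 2 of the 8 fits that left out 1 library (edgeR adjusted p up to 0.0938), and Mmp23 in all 8. Mmp11, which is known from stromal cells around tumours, was called higher without low-fat replicate 1 (log2 0.53 ± 0.08 SE, edgeR adjusted p = 0.000751), as was Mmp27 (log2 0.66 ± 0.19 SE, edgeR adjusted p = 0.0194). The membrane-type Mmp15 had 50.1, 45.7, 50.2 and 49.9 normalised CPM in high-fat libraries, against 31.4, 59.6, 47.3 and 54.5 in low-fat libraries, which overlapped (log2 0.01 ± 0.17 SE). Mmp17, Mmp24, Mmp25 and Mmp28 were called in neither fit.

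Among the ADAMTS enzymes, the pair known to cleave cartilage oligomeric matrix protein rose. Adamts12 (chr15:11064790-11349231) had 64.0, 63.3, 34.3 and 77.3 normalised CPM in high-fat libraries, against 3.55, 9.16, 13.4 and 14.2 normalised CPM in low-fat libraries. High-fat replicate 5 was the lowest of its group and still above all low-fat libraries; the fold change was 5.91 (log2 2.56 ± 0.45 SE, edgeR adjusted p = 0.00771). Adamts7 averaged 24.5 ± 2.39 normalised CPM in high-fat and 9.77 ± 4.27 in low-fat libraries (SD, n = 4 each), without overlap (log2 1.32 ± 0.36 SE, edgeR adjusted p = 0.0377), and was no longer called when any 1 library but low-fat replicate 1 was left out (adjusted p up to 0.0969). Of the procollagen N-proteinases, Adamts14 rose (12.4, 13.0, 11.2 and 10.8 normalised CPM in high-fat libraries, against 3.78, 4.39, 5.22 and 5.54 in low-fat libraries; log2 1.31 ± 0.15 SE, edgeR adjusted p = 0.00156). Adamts3 was also called higher, at low levels, with 0.947, 0.896, 0.903 and 1.57 normalised CPM in high-fat libraries, against 0.136, 0.111, 0.301 and 0.174 in low-fat libraries (log2 2.55 ± 0.37 SE, edgeR adjusted p = 0.00360). It had 33 to 56 counts in high-fat and 4 to 11 counts in low-fat libraries and passed the low-count filter through the high-fat group alone, which favours a difference. Adamts2, the most abundant of these enzymes, had 218, 235, 232 and 244 normalised CPM in high-fat libraries, against 46.3, 189.6, 157 and 210.4 in low-fat libraries. Its groups did not overlap, and it was called only without low-fat replicate 1, where the difference was 0.32 on the log2 scale (edgeR adjusted p = 0.0314).

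The proteoglycan-cleaving enzymes divided. Adamts4 had 18.7, 19.8, 19.6 and 16.4 normalised CPM in high-fat libraries, against 3.08, 7.38, 8.12 and 9.43 normalised CPM in low-fat libraries, and rose 2.64-fold without overlap (log2 1.40 ± 0.30 SE, edgeR adjusted p = 0.0166). Adamts15 (38.7 ± 4.91 normalised CPM in high-fat and 21.6 ± 1.58 in low-fat libraries, SD, n = 4 each) and Adamts9 (87.2 ± 7.21 in high-fat and 57.4 ± 9.30 in low-fat libraries) rose as well, by 0.82 and 0.59 on the log2 scale (edgeR adjusted p = 0.00252 and 0.0156). Adamts20 fell, with 0.289, 0.380, 0.146 and 0.308 normalised CPM in high-fat libraries, against 0.701, 0.722, 0.711 and 1.24 in low-fat libraries (log2 -1.60 ± 0.35 SE, edgeR adjusted p = 0.0173), and passed the low-count filter through the low-fat group alone. Of the 8 fits that left out 1 library, all called Adamts15, 6 called Adamts4, 6 called Adamts20 and 5 called Adamts9 (edgeR adjusted p up to 0.0580). The abundant Adamts5 had 579, 421, 534 and 658 normalised CPM in high-fat libraries, against 106, 795, 401 and 543 in low-fat libraries. These ranges overlapped, as did those of Adamts1 (54.4 to 61.2 normalised CPM in high-fat and 31.3 to 71.4 in low-fat libraries), and neither gene was called with or without low-fat replicate 1.

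Adamts6 and Adamts17, which are known to act on microfibril proteins, were both higher in the high-fat libraries, by 1.49 ± 0.34 and 1.23 ± 0.28 on the log2 scale (SE, edgeR adjusted p = 0.020 and 0.0191). Adamts6 was called in only 3 and Adamts17 in 5 of the 8 fits that left out 1 library (edgeR adjusted p up to 0.0613 and 0.0638). Adamts16 and Adamts18 were called higher only without low-fat replicate 1 (log2 2.02 and 0.80, edgeR adjusted p = 0.00212 and 0.0148). Adamts10, a further microfibril-associated member, had 70.6, 67.6, 83.5 and 78.4 normalised CPM in high-fat libraries, against 36.3, 123, 109 and 117 in low-fat libraries. The library labelled replicate 1 of low-fat SAT was the lowest of the 8; without it Adamts10 was lower in high-fat SAT (log2 -0.64 ± 0.08 SE, edgeR adjusted p = 0.000375).

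The 4 inhibitors differed in direction. Timp2 (chr11:118301069-118355740) had 396, 409, 448 and 421 normalised CPM in high-fat libraries, against 157, 184, 220.4 and 200.1 normalised CPM in low-fat libraries, and rose 2.18-fold without overlap (log2 1.12 ± 0.12 SE, edgeR adjusted p = 0.00132). Timp4 (chr6:115241892-115252205), an inhibitor known from adipose tissue and heart, had 91.7, 77.1, 114 and 106 normalised CPM in high-fat libraries, against 67.6, 549, 324 and 371 normalised CPM in low-fat libraries. All high-fat libraries lay below the low-fat replicates 3, 5 and 6 and above replicate 1; without replicate 1 Timp4 fell 4.28-fold (log2 -2.10 ± 0.21 SE, edgeR adjusted p = 0.000274), while with it the edgeR adjusted p was 0.0516. Timp1 had 4.66, 4.34, 3.29 and 2.27 normalised CPM in high-fat libraries, against 2.81, 0.4996, 0.410 and 1.02 normalised CPM in low-fat libraries. It overlapped only through low-fat replicate 1, without which it rose by 2.48 ± 0.39 on the log2 scale (SE, edgeR adjusted p = 0.00127), against an edgeR adjusted p of 0.116 with all libraries. Syn1, which contains Timp1 on the other strand, was also higher, at 3.18 to 3.75 CPM in high-fat and 0.328 to 0.968 CPM in low-fat libraries. Timp3, which stays bound to the matrix, had 451, 554, 566 and 469 normalised CPM in high-fat libraries, against 155, 604, 495 and 504 in low-fat libraries, with overlap (log2 0.21 ± 0.36 SE).

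**Figure D3:**
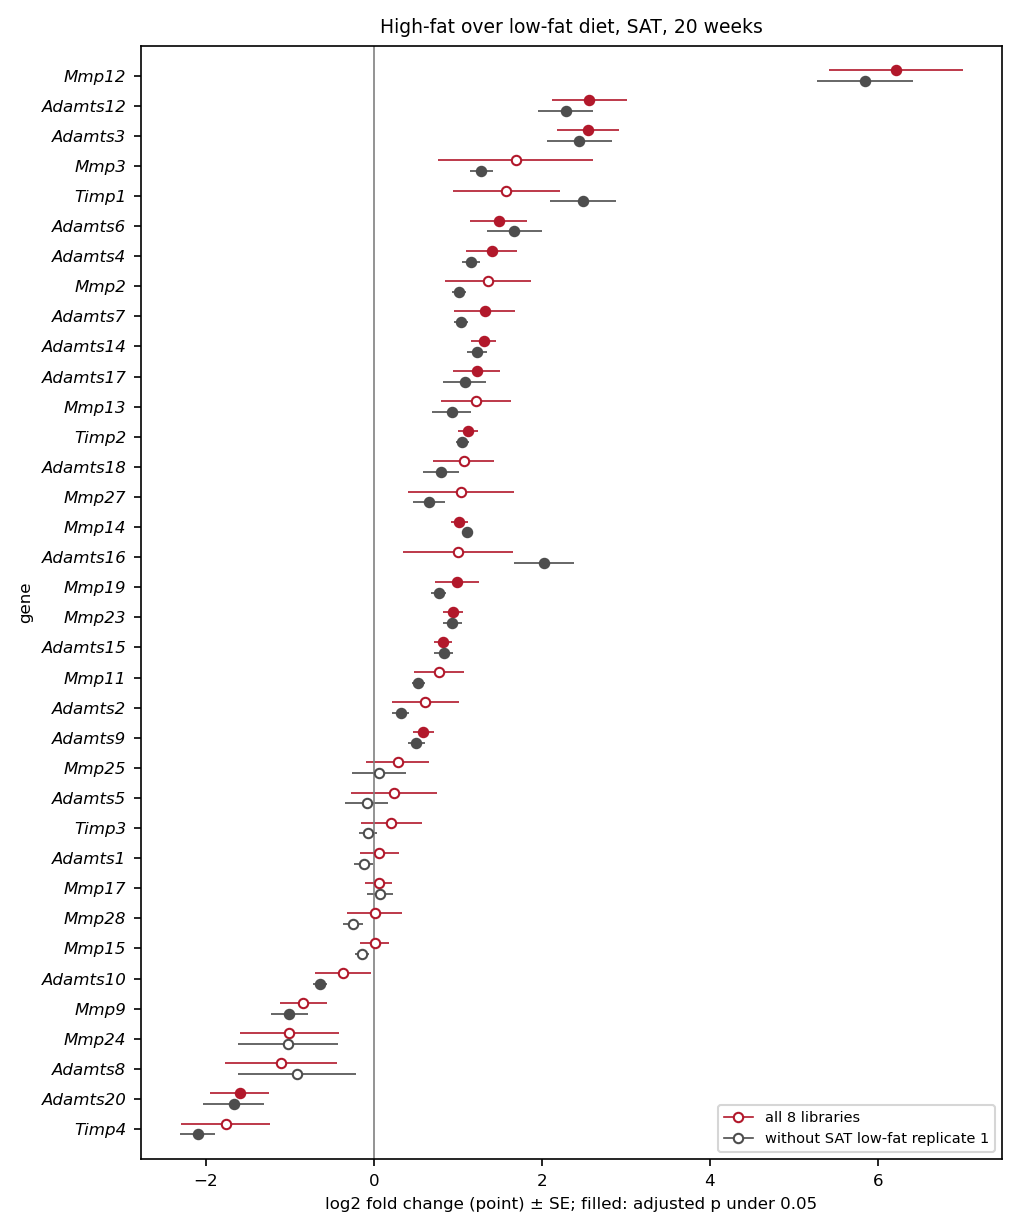
Log2 fold change (high-fat over low-fat SAT) of the 36 tested members with SE bars, with all 8 libraries and without the library labelled replicate 1 of low-fat SAT; filled points have an edgeR adjusted p under 0.05. Mmp12 lies farthest to the right at 6.22, Timp4 and Adamts20 lie to the left, and more points are filled without that library (27) than with it (15).

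Genes of linked protease systems and of the matrix were listed alongside. Plasminogen activation is a protease system that activates Mmp precursors. Of 13 tested genes in a list of it and of soluble inhibitors, which also holds Sparc, Bsg and Reck, 6 rose and 0 fell. Among the 6 were Plaur (1.77 on the log2 scale), the urokinase receptor, and its ligand Plau (1.14). Without low-fat replicate 1, 7 were called higher and 1 lower. Of 11 tested membrane ADAM proteases 5 rose, led by Adam8 (4.42), a protease of myeloid cells, and Adam17 (0.67), the TNF convertase. Without low-fat replicate 1, 9 of the 11 were called higher and 1 lower. Of 14 tested astacins and procollagen-processing enzymes 5 rose, including Bmp1 (0.81), the procollagen C-proteinase, its enhancer Pcolce2 (2.50) and the collagen cross-linker Loxl2 (1.26). Here 12 of the 14 were called higher and 1 lower without low-fat replicate 1. Among substrates, 6 of 20 proteoglycans and glycoproteins rose, such as Fn1 (2.24) and Vcan (1.22), and 1 of 16 collagens, Col8a1 (0.71), and without low-fat replicate 1 these became 13 substrates higher and 1 lower, and 14 collagens higher. EdgeR called 0 of 7 tested ADAMTS-like genes, which resemble ADAMTS enzymes but lack the protease domain (0 at an unadjusted p under 0.05, 0 by DESeq2 and 4 by limma-voom), and called 4 higher and 1 lower without low-fat replicate 1. Macrophage markers moved with these genes: 13 of 15 were called higher (14 without low-fat replicate 1), their sum was 2012 to 2567 CPM in high-fat and 459 to 752 CPM in low-fat libraries, and none was at 0 in a whole group. The 12 progenitor and fibroblast markers (4 called higher, and 10 without low-fat replicate 1) summed to 5227 to 5669 CPM in high-fat and 1228 to 3077 CPM in low-fat libraries. The adipocyte markers (2 of 10 called lower, and 6 lower and 2 higher without low-fat replicate 1) summed to 38649 to 39306 CPM in high-fat libraries, against 42522 to 47816 CPM in low-fat replicates 3, 5 and 6. In whole tissue, more cells of a type and more RNA per cell cannot be told apart, and the part of these cell types in the members' differences was not tested.

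In GAT on the 8-week high-fat diet, Azin2-/- libraries had higher expression of 6 of 36 tested members than wild-type libraries and lower expression of none, at an edgeR adjusted p under 0.05. At an unadjusted p under 0.05 edgeR had 13 higher and 3 lower, against 28.7% of all genes in either direction, and 1 was called lower by DESeq2 and 3 by limma-voom, which called 18.4% and 38.5% of all genes. Of 16778 genes tested, 5.45% were called higher and 1.32% lower, and the median log2 fold change (Azin2-/- over wild-type) was 0.19 for the members and -0.04 for all genes. The groups did not overlap for 8 members that were higher and for none that was lower, against 8.28% and 6.34% of all genes. The 6 calls had adjusted p-values of 0.0408 and 0.0409, close to the threshold. None of the 36 was called when Azin2-/- replicate 2, 3 or 4 or wild-type replicate 2 or 4 was left out, and at most 0.00585% of all genes were called in those fits. None was called in a fit of all 24 libraries either, where 6.39% of all genes were called. Without Azin2-/- replicate 1, 12 members and 15.7% of all genes were called, and 7 members without wild-type replicate 3, where 7.94% of 16912 genes were called.

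Of the 6 genes, 4 are metalloproteinases, and Mmp2 and Mmp14 are the pair in which the membrane enzyme activates the secreted one. Mmp2 had 91.3, 143, 121 and 122 normalised CPM in Azin2-/- GAT, against 78.3, 78.3, 67.1 and 81.2 normalised CPM in wild-type GAT. Mmp14 had 89.1, 134, 139 and 121 normalised CPM in Azin2-/- GAT, against 74.8, 85.9, 76.4 and 76.3 in wild-type GAT. Both were higher in every Azin2-/- library, by 0.63 ± 0.12 and 0.61 ± 0.13 on the log2 scale (SE, edgeR adjusted p = 0.0408 and 0.0409). The collagenase Mmp13 had 1.94, 3.34, 3.67 and 3.92 normalised CPM in Azin2-/- GAT, against 1.43, 0.961, 0.978 and 0.788 in wild-type GAT, a 3.05-fold rise without overlap (log2 1.61 ± 0.28 SE, edgeR adjusted p = 0.0408). Mmp27, of the same run on chromosome 9, had 1.22, 1.39, 1.39 and 1.48 normalised CPM in Azin2-/- GAT, against 0.631, 0.657, 0.620 and 0.732 in wild-type GAT (log2 1.04 ± 0.18 SE, edgeR adjusted p = 0.0408), again without overlap. The procollagen N-proteinase Adamts2 (chr11:50602084-50807573) had 223, 267, 248 and 246 normalised CPM in Azin2-/- GAT, against 188, 166, 158 and 174 in wild-type GAT (log2 0.51 ± 0.08 SE, edgeR adjusted p = 0.0408), and these groups were also separate.

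The inhibitors differed between genotypes in direction, and 1 of the 4 passed the test. Timp1 (chrX:20870166-20874735), an inducible inhibitor, had 6.00, 18.1, 17.8 and 15.3 normalised CPM in Azin2-/- GAT, against 4.33, 6.09, 4.44 and 4.05 normalised CPM in wild-type GAT. Azin2-/- replicates 2, 3 and 4 were above all wild-type libraries and replicate 1 was within their range; the log2 fold change was 1.58 ± 0.33 (SE, edgeR adjusted p = 0.0408), and Syn1 on the other strand was at 2.74 to 7.75 CPM in Azin2-/- and 1.81 to 3.02 CPM in wild-type GAT. Timp4 had 293, 153, 126 and 154 normalised CPM in Azin2-/- GAT, against 347, 388, 248 and 476 normalised CPM in wild-type GAT. The same replicate 1 overlapped with the wild-type libraries, and the difference of -1.01 ± 0.30 on the log2 scale had an edgeR adjusted p of 0.0723 with all libraries and just under 0.05 without wild-type replicate 3 (log2 -1.16). Timp2 (591 ± 89.7 normalised CPM in Azin2-/- and 451 ± 89.8 in wild-type GAT) and Timp3 (432 ± 49.5 in Azin2-/- and 579 ± 150.3 in wild-type GAT) differed by 0.37 and -0.43 on the log2 scale and were not called (SD, n = 4 each).

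Mmp12 and Mmp3 had wide differences that did not pass the test. Mmp12 had 274, 667, 690.0 and 471 normalised CPM in Azin2-/- GAT, against 201, 254, 62.8 and 62.0 normalised CPM in wild-type GAT, which is 3.58-fold (log2 1.84 ± 0.52 SE, edgeR adjusted p = 0.0688) without overlap. Wild-type GAT fell into a higher pair (replicates 1 and 2) and a lower pair (3 and 4). Mmp3 had 3.08, 9.23, 8.06 and 11.1 normalised CPM in Azin2-/- GAT, against 3.03, 3.54, 1.34 and 2.39 normalised CPM in wild-type GAT, with 1 Azin2-/- library inside the wild-type range (log2 1.59 ± 0.42 SE, edgeR adjusted p = 0.0562). Without Azin2-/- replicate 1, the edgeR adjusted p was 0.0467 for Mmp12 and 0.00822 for Mmp3. Adamts1 (89.5, 123, 73.3 and 141 normalised CPM in Azin2-/- GAT, against 91.9, 52.0, 49.3 and 57.3 in wild-type GAT), Adamts4 (log2 0.42 ± 0.24 SE) and Adamts5 (0.07 ± 0.23) were not called, nor was Mmp9 (0.04 ± 0.25).

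Beside the members, 9 of 16 collagens were called higher in Azin2-/- GAT, led by Col1a1 (1.10 on the log2 scale) and Col3a1 (1.03). Also higher were 3 of 11 membrane ADAM proteases (Adam8 2.35, Adam17 0.67, Adam19 0.69), 3 of 15 astacins and procollagen-processing genes (Pcolce2 0.89, Lox 0.70, Bmp1 0.42) and 5 of 20 substrates, such as Lum (1.01) and Comp (1.29). EdgeR called 0 of 14 genes in the list of plasminogen activation and soluble inhibitors (5 at an unadjusted p under 0.05, 5 by DESeq2 and 5 by limma-voom). It also called 0 of 7 ADAMTS-like genes (2 at an unadjusted p under 0.05, 1 by DESeq2 and 2 by limma-voom). Macrophage markers again moved with the members: 12 of 15 were called higher and summed to 2492 to 5342 CPM in Azin2-/- GAT, against 1364 to 2090.4 CPM in wild-type GAT, none at 0. Azin2-/- replicate 1, in which Timp1, Timp4 and Mmp3 lay nearest to wild type, had the lowest macrophage sum of its group (2492 CPM) and the highest Azin2 (19.8 CPM). The progenitor and fibroblast markers (3 of 12 called higher) summed to 4011 to 5488 CPM in Azin2-/- GAT and 2899.9 to 3769.7 CPM in wild-type GAT, and the 10 mesothelial markers to 39.9 to 188 CPM in Azin2-/- GAT and 80.0 to 648 CPM in wild-type GAT. The part of these cell types in the differences was not tested.

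**Figure D4:**
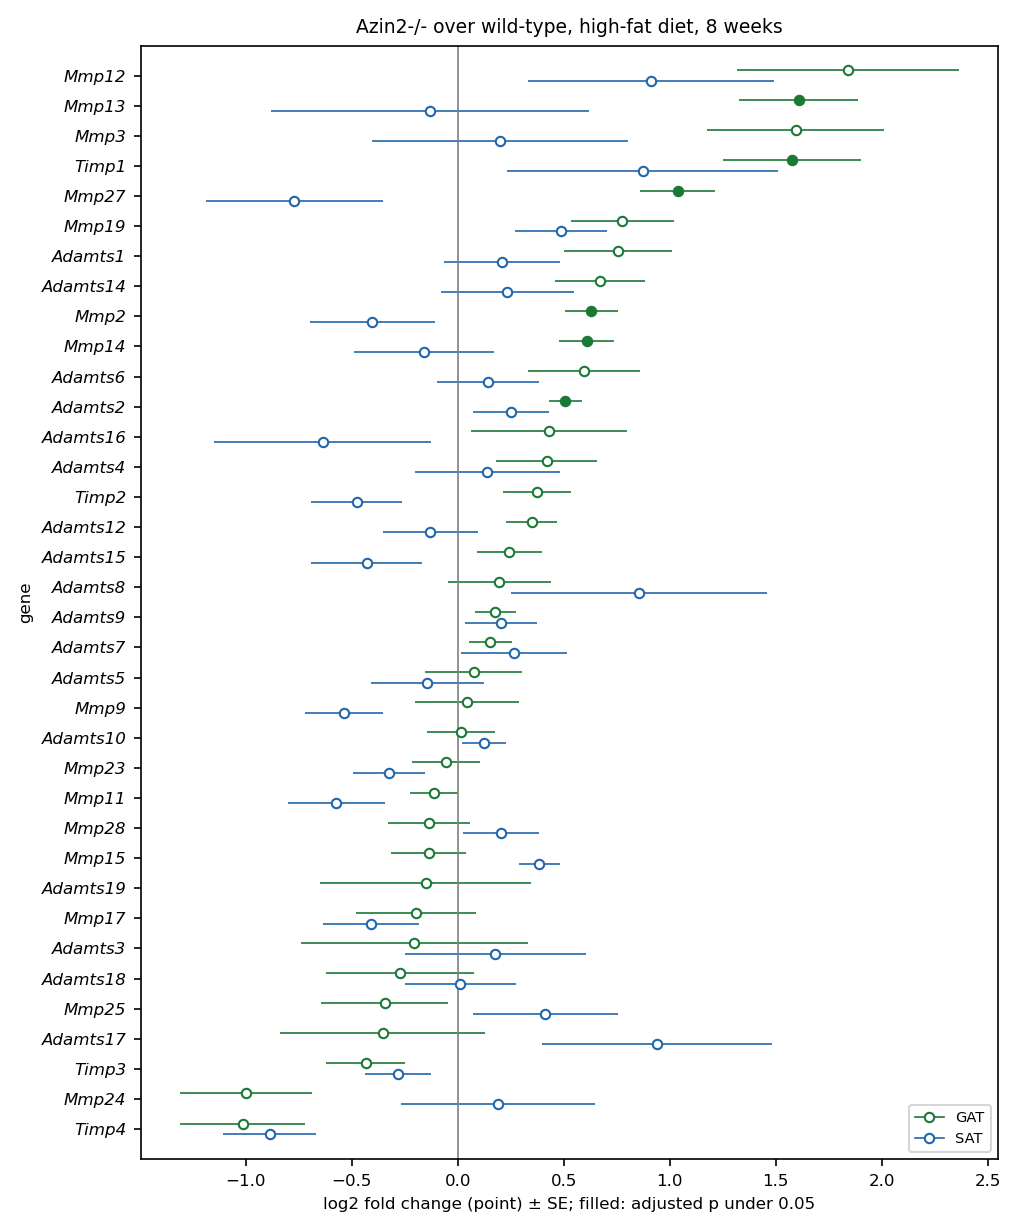
Log2 fold change (Azin2-/- over wild-type) with SE bars for the members tested in GAT, in GAT (green) and in SAT (blue); filled points have an edgeR adjusted p under 0.05. The 6 filled points are all in GAT and lie between 0.51 and 1.61, and no SAT point is filled.

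In SAT on the same diet, edgeR called none of 36 tested members between Azin2-/- and wild-type libraries, with 0.0059% of 16948 genes called, and 4 members had an unadjusted p under 0.05 (4 of 36, against 10.3% of all genes, a share near this background). DESeq2's Wald test and limma-voom with quality weights each called 2 members, 1 higher and 1 lower, with 1.99% and 1.76% of all genes called. The member with the lowest p was Timp4, with 105, 219 and 165 normalised CPM in Azin2-/- SAT, against 334, 284, 253, 324 and 301 normalised CPM in wild-type SAT. All 3 Azin2-/- libraries were lower than all 5 wild-type libraries, and the difference was -0.89 ± 0.22 on the log2 scale (SE, edgeR adjusted p = 0.266). The membrane-type Mmp15 was the reverse, with 50.4, 56.9 and 58.0 normalised CPM in Azin2-/- SAT, against 42.5, 42.5, 47.8, 37.0 and 39.5 in wild-type SAT, without overlap (log2 0.39 ± 0.10 SE, edgeR adjusted p = 0.281). Mmp9 (4.03, 3.99 and 3.22 normalised CPM in Azin2-/- SAT, against 6.30, 5.17, 5.39, 4.04 and 6.08 in wild-type SAT) and Mmp11 (log2 -0.57 ± 0.23 SE) were the other 2 (edgeR adjusted p = 0.40 and 0.459). The groups did not overlap for 3.44% of all genes that were higher and 3.8% that were lower.

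The spread within Azin2-/- SAT was wide for the matrix proteases. Mmp2 had 189, 80.4 and 119 normalised CPM in Azin2-/- SAT, against 152, 118, 222, 158 and 201 in wild-type SAT. Mmp14 had 153, 45.9 and 97.3 normalised CPM in Azin2-/- SAT, against 101, 91.3, 131, 102 and 122 in wild-type SAT, and Mmp3 had 72.9, 7.67 and 26.0 in Azin2-/- SAT, against 30.5, 25.3, 38.3, 22.9 and 37.0 in wild-type SAT. In each the second Azin2-/- library was the lowest of all 8, and the first Azin2-/- library was within the wild-type range or above it. The third wild-type library was the highest wild-type library in each. Both the second Azin2-/- and the third wild-type library held skeletal muscle transcripts, and the part of these transcripts was not tested. Mmp12 had 85.8, 58.9 and 32.3 normalised CPM in Azin2-/- SAT, against 41.4, 61.8, 9.79, 20.1 and 23.1 in wild-type SAT, with overlap (log2 0.91 ± 0.58 SE, edgeR adjusted p = 0.6246). Without the muscle-bearing libraries (Azin2-/- replicate 2 and wild-type replicate 3), edgeR still called none of the members, with 0.0463% of 17277 genes called. At an unadjusted p under 0.05 it had 10 of 36 members, against 14.5% of all genes. The fit then rested on 2 Azin2-/- libraries.

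Whether the effect of genotype differed by depot (GAT minus SAT) was tested as an interaction over the 16 libraries. EdgeR called 0 of 37 tested members and 0 of 18033 genes (0.0%), with 4 members at an unadjusted p under 0.05, against 11.2% of all genes, a share near this background. DESeq2 called 1 member and 0.876% of all genes, and limma-voom called 7 members and 15.1% of all genes. The 4 were Mmp27 (log2 1.81 ± 0.46 SE, edgeR adjusted p = 0.312), Mmp2 (1.04 ± 0.34, 0.346), Timp2 (0.86 ± 0.28, 0.346) and Mmp15 (-0.52 ± 0.21, 0.403). Calls in GAT without calls in SAT are thus not shown to differ between the depots.

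GAT and SAT of wild-type mice were compared on the same 8-week high-fat diet. Of 37 tested members, edgeR called 1 higher in GAT and 5 lower, against 2.47% and 1.87% of 17030 genes. Mmp3 had 3.03, 3.54, 1.34 and 2.39 normalised CPM in wild-type GAT, against 30.5, 25.3, 38.3, 22.9 and 37.0 normalised CPM in wild-type SAT. The depots were far apart, with 11.9-fold less in GAT (log2 -3.58 ± 0.30 SE, edgeR adjusted p = 0.000780). Mmp27, of the same run on chromosome 9, was lower as well, with 0.631, 0.657, 0.620 and 0.732 normalised CPM in wild-type GAT, against 2.38, 1.78, 2.95, 1.30 and 2.26 in wild-type SAT (log2 -1.69 ± 0.26 SE, edgeR adjusted p = 0.00876). The gelatinase Mmp2 (76.2 ± 6.21 normalised CPM in GAT, n = 4, and 170.2 ± 41.5 in SAT, n = 5, SD) fell by 1.16 on the log2 scale (edgeR adjusted p = 0.00845).

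Adamts12 (9.10 ± 1.03 normalised CPM in wild-type GAT, n = 4, and 14.9 ± 2.92 in wild-type SAT, n = 5, SD) was lower (log2 -0.70 ± 0.15 SE, edgeR adjusted p = 0.0347), as was Mmp14 (log2 -0.48 ± 0.11 SE, edgeR adjusted p = 0.0450), a call that was lost without the libraries holding transcripts of other tissues (0.0617). The gene higher in GAT was Mmp23, an unusual family member whose prodomain anchors it in the membrane, with 18.0, 26.6, 19.3 and 28.1 normalised CPM in wild-type GAT, against 13.8, 12.7, 12.5, 13.2 and 13.2 in wild-type SAT (log2 0.82 ± 0.14 SE, edgeR adjusted p = 0.0126), without overlap. Mmp12 (201, 254, 62.8 and 62.0 normalised CPM in GAT, against 41.4, 61.8, 9.79, 20.1 and 23.1 in SAT) had an edgeR adjusted p of 0.0941. None of the 4 Timp genes was called. Timp1 had 4.33, 6.09, 4.44 and 4.05 normalised CPM in GAT, against 1.48, 3.92, 0.666, 1.33 and 0.904 in SAT, higher without overlap. It was called in 1 of the 9 fits that left out 1 library (log2 1.31 to 2.11 over these fits). Over the 9 fits that left out 1 library, Mmp3, Mmp2, Mmp27 and Mmp23 were called in every one, Adamts12 in 3 and Mmp14 in 1. Some libraries of the 2 depots carry the same mark, and the labels used here do not say whether those come from the same animals. With a block for these marks, in which a library with no partner adds nothing to the difference, edgeR called 0 of 37 members and 0.0% of 17030 genes. Mesothelial markers separated these depots: 9 of 10 were called higher in GAT, and they summed to 80.0 to 648 CPM in wild-type GAT and 2.86 to 5.30 CPM in wild-type SAT, where Muc16 was at 0. The progenitor and fibroblast markers (1 of 12 called higher in GAT and 2 lower) summed to 2899.9 to 3769.7 CPM in wild-type GAT and 3986 to 4519 CPM in wild-type SAT, without overlap. The macrophage markers (2 of 15 called higher, and 8 without the libraries holding transcripts of other tissues) summed to 1364 to 2090.4 CPM in wild-type GAT and 731 to 1415 CPM in wild-type SAT, with overlap. The part of these cell types in the members' depot differences was not tested.

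In Azin2-/- mice, which share the diet, edgeR called 5 of 37 members higher and 1 lower in GAT than in SAT, against 9.13% and 6.04% of 16800 genes. Mmp12 had 274, 667, 690.0 and 471 normalised CPM in Azin2-/- GAT, against 85.8, 58.9 and 32.3 in Azin2-/- SAT, without overlap (8.85-fold, log2 3.15 ± 0.46 SE, edgeR adjusted p = 0.0157). Timp1 had 6.00, 18.1, 17.8 and 15.3 normalised CPM in Azin2-/- GAT, against 5.80, 1.82 and 1.56 in Azin2-/- SAT, and Timp2 had 472, 686, 619 and 585 in Azin2-/- GAT, against 363, 226 and 217 in Azin2-/- SAT. Neither overlapped between depots, and they were higher in GAT by 2.20 ± 0.58 and 1.13 ± 0.22 on the log2 scale (SE, edgeR adjusted p = 0.0454 and 0.0231). Mmp23 (1.08) and Mmp11 (0.66) were also higher and Mmp15 (-0.78) lower (edgeR adjusted p = 0.0212, 0.0455 and 0.0181). Without the muscle-bearing SAT replicate 2, 9 members were called: Timp1 was no longer among them (edgeR adjusted p = 0.0874), and Mmp3 (-2.66), Adamts7 (-0.72), Adamts9 (-0.41) and Adamts12 (-0.45) were called lower, with 14.7% of 17220 genes called. No member was called when GAT replicate 2 or SAT replicate 3 was left out, 1 without GAT replicate 3 and 2 without GAT replicate 4; the shares of all genes called in these fits were 0.217%, 0.233%, 1.67% and 1.31% in the same order. Macrophage markers summed to 2492 to 5342 CPM in Azin2-/- GAT and 746 to 1532 CPM in Azin2-/- SAT, and their part was not tested.

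**Figure D5:**
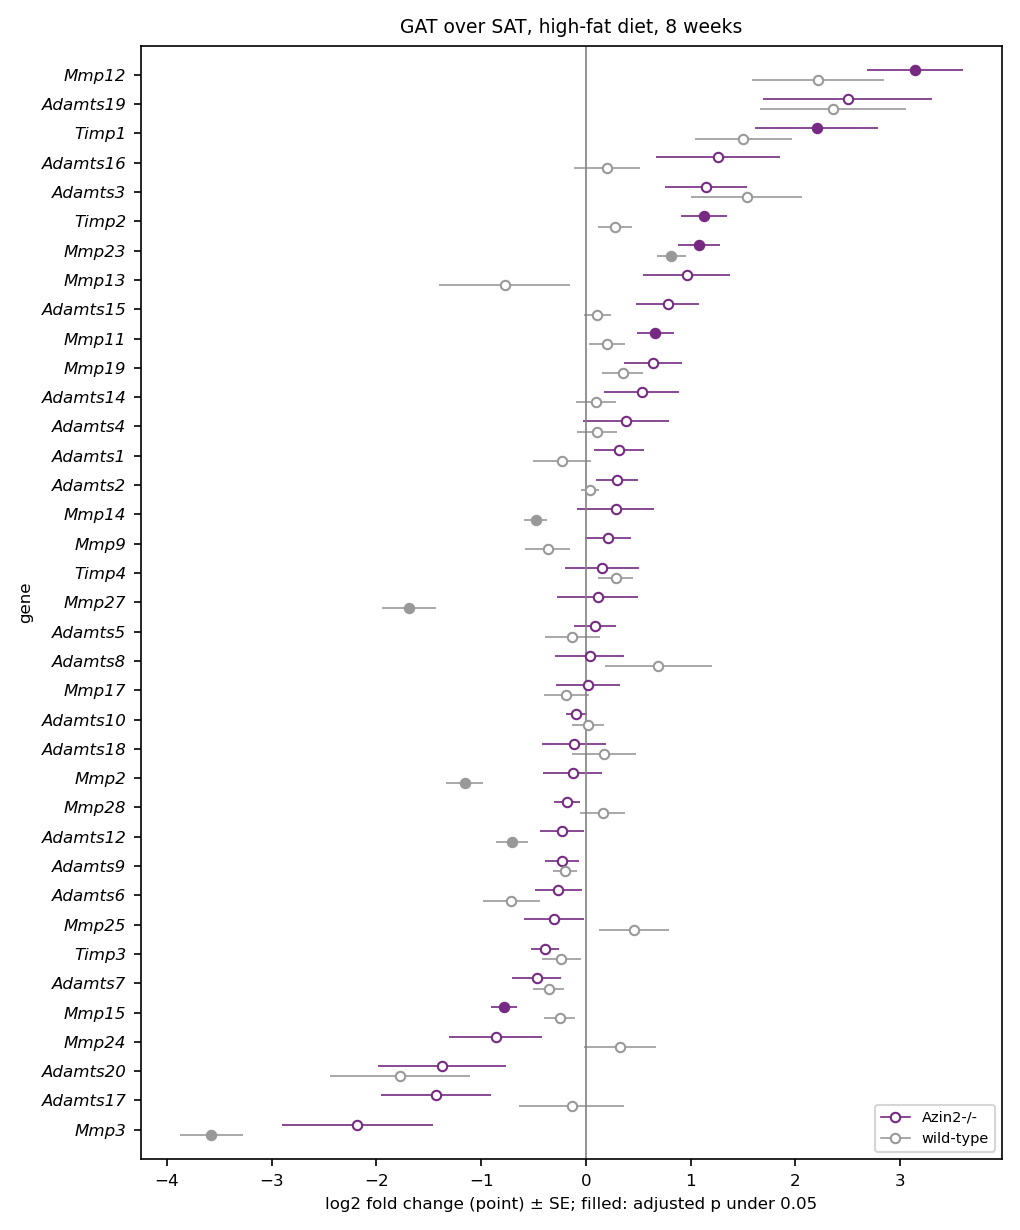
Log2 fold change (GAT over SAT) with SE bars for each tested member in Azin2-/- mice (purple) and wild-type mice (grey); filled points have an edgeR adjusted p under 0.05. Mmp3 lies to the left in both genotypes (-2.18 and -3.58) and is filled in wild-type mice, and Mmp12 lies to the right and is filled in Azin2-/- mice.

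The depot and genotype comparisons share libraries, so their values are set side by side without counting their overlap. For Mmp3, the log2 fold change was -2.18 ± 0.72 (GAT over SAT, Azin2-/-) and -3.58 ± 0.30 (GAT over SAT, wild-type), and 1.59 ± 0.42 (Azin2-/- over wild-type, GAT) and 0.20 ± 0.60 (Azin2-/- over wild-type, SAT), all with SE. For Mmp2 the same 4 values were -0.13 ± 0.28, -1.16 ± 0.17, 0.63 ± 0.12 and -0.40 ± 0.29. For Mmp12 they were 3.15 ± 0.46, 2.21 ± 0.63, 1.84 ± 0.52 and 0.91 ± 0.58. Mmp3 was thus lower in GAT in both genotypes by its fitted value, whereas Mmp12 was higher there, and both genes lie in the same run on chromosome 9.

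The members that did not pass the filter were at or near the limit of detection. Mmp20, the enamel protease, had counts in 1 library (3 counts), Mmp1b in 2, Mmp21 in 3, and Mmp10 and Adamts13, the von Willebrand factor protease, in 10 libraries each, with at most 9 counts per library. Mmp16 and Mmp8, the neutrophil collagenase, had at most 15 and 13 counts per library. A count of 0 allows up to 3 counts. Mmp7, an epithelial protease, was the exception among them: it had 1518 counts (34.3 normalised CPM) in the library labelled replicate 1 of low-fat SAT and 14.5 normalised CPM in GAT Azin2-/- replicate 1, and at most 0.262 normalised CPM in the other 22 libraries. Adamts19 passed the filter only in comparisons that include GAT and was called in none, and Adamts20 did not pass it in the comparison of genotypes in GAT.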

How the data were processed

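The 24 libraries hold RNA of whole adipose tissue. A NucleoSpin kit, a stranded total RNA preparation and paired-end sequencing were used, per the labels' protocols. The deposited values are raw read counts per Ensembl gene, 1 table per library, which the authors made with cutadapt, STAR and HTSeq 0.6.1p1 on GRCm38, per the submitters' processing notes. Counting mode, strand setting and annotation version: not given in the sources used here.

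Symbols, coordinates and exon lengths came from GENCODE M21, which holds 49326 of the 49585 identifiers; the other 259 hold 0.0103% of counts. Promoter sequences came from RefSeq (GRCm38.p6), where 31 of the 45 members matched. Genes were filtered with filterByExpr (minimum count 10, minimum total count 15), scaled by TMM and tested with edgeR 4.0.16 (quasi-likelihood test, R 4.3.3), with adjusted p-values (Benjamini-Hochberg) over all genes tested in each of 6 comparisons: diet in SAT, genotype in SAT and in GAT, GAT against SAT in each genotype, and the interaction. Each fit held only the libraries of its groups. The members tested are those that passed the filter, and a member that passes through the group where it is high is favoured by it. Normalised CPM uses TMM factors over all 24 libraries, marker sums are CPM of the total count, and TPM divides by union exon length. Alternatives were DESeq2 size factors, DESeq2 1.42.0 (Wald test), limma-voom with quality weights (limma 3.58.1), 1 fit of all 24 libraries, no low-count filter, a replicate block, and leaving out libraries. The edgeR step was tested on simulated data.

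Totals of 31.96 to 46.62 megareads set the precision. A count of 0 allows up to 3 counts (95% confidence); that limit is for counting error alone, because reads carried no molecular identifiers and are not independent. No 2 libraries of a group agreed within sampling noise (smallest chi-square per degree of freedom 8.93). The members and the gene lists were chosen with earlier results of these data known. Members named per comparison were those called with all libraries or without the libraries standing apart, up to 25 by p-value, besides Mmp2, Mmp3, Mmp9, Mmp12, Mmp13, Mmp14, the Timp genes, Adamts1, Adamts4 and Adamts5; other names, with Mmp27 and Adamts2 for diet, were chosen after their values were seen. Listed genes that are not members were named if called, up to 6 per list.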

Additional observations from a re-analysis of the deposited data

Results flagged for a closer look

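A gap between 1 library and the others of its group beyond Dixon's 95% critical value was found in 13 of 155 checks over 31 members; chance flags about 1 in 20 groups. All values are normalised CPM. In low-fat SAT, the library labelled replicate 1 stood apart for Adamts10 (36.3, against 109 to 123 in the other 3), Adamts7 (3.37, against 11.7 to 12.02) and Adamts16 (1.99, against 0.250 to 0.521), and replicate 6 for Adamts20 (1.24, against 0.701 to 0.722). In high-fat SAT, replicate 6 was high for Adamts3 (1.57, against 0.896 to 0.947) and low for Adamts7 (20.98, against 25.4 to 26.2), replicate 3 was high for Adamts18 (1.34, against 1.06 to 1.09), replicate 5 was high for Mmp13 (2.12, against 1.81 to 1.82), and replicate 4 was low for Mmp15 (45.7, against 49.9 to 50.2). In wild-type SAT, replicate 2 was high for Timp1 (3.92, against 0.666 to 1.48). In GAT, Azin2-/- replicate 1 was high for Timp4 (293, against 126 to 154), Azin2-/- replicate 2 was high for Mmp23 (26.5, against 20.6 to 21.2), and wild-type replicate 2 was high for Mmp14 (85.9, against 74.8 to 76.4).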

How the results depend on the processing

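The count of members called by edgeR was 15 for diet, 0 for genotype in SAT, 6 for genotype in GAT, 6 for depot in wild-type mice, 6 for depot in Azin2-/- mice and 0 for the interaction. DESeq2's size factors changed none of these 6 counts, and other settings moved them by over 1.5 times as follows. Shares in brackets are of all genes tested that the same fit called. With limma-voom the counts were 26 for diet (46.9%), 2 for genotype in SAT (1.76%), 17 for genotype in GAT (38.5%), 12 and 17 for depot in wild-type and Azin2-/- mice (14.6% and 39.5%), and 7 for the interaction (15.1%). With DESeq2's Wald test they were 2 for genotype in SAT (1.99%), 13 for genotype in GAT (18.4%), 10 for depot in Azin2-/- mice (26.1%) and 1 for the interaction (0.876%). Genotype in GAT gave 0 with no low-count filter (0%) and 0 with all 24 libraries in 1 fit (6.39%), and depot in wild-type mice gave 3 in that fit (3.31%). Diet gave 27 without the library labelled low-fat replicate 1 (47%) and 27 without that and low-fat replicate 5 (42.2%). Leaving out 1 library at a time gave 8 to 27 for diet, 0 to 0 for genotype in SAT, 0 to 12 for genotype in GAT, 4 to 7 and 0 to 9 for depot in wild-type and Azin2-/- mice, and 0 to 0 for the interaction; fits that left 2 libraries in a group were limited by that number. The cause of these shifts was not tested.

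Libraries with the same number or mark were not treated as pairs, since the labels do not say what a mark stands for. Their deviations from the group means correlated at -0.22 to 0.27 in 11 pairs, and at 0.54 and 0.85 in the only 2 pairs for genotype in SAT. The pair at 0.85 was Azin2-/- replicate 2 and wild-type replicate 3, the SAT libraries with the most skeletal muscle transcripts. The part of those transcripts in both correlations was not tested. A replicate block, in which a library with no partner adds nothing to the difference, gave 23 members for diet (34.4%), 0 for depot in wild-type mice (0%), 9 for genotype in GAT (10.2%), 5 for depot in Azin2-/- mice (6.54%) and 0 for genotype in SAT and for the interaction. Over single members and settings, direction and side of the threshold were kept in 332 values for diet, 56 for genotype in SAT, 168 for genotype in GAT, 170 and 157 for depot in wild-type and Azin2-/- mice and 87 for the interaction. A call was lost in 32, 44, 27 and 29 values for diet, genotype in GAT, depot in wild-type and depot in Azin2-/- mice. The direction turned in 1: Adamts12 for depot in Azin2-/- mice was 0.0024 on the log2 scale with the block, against -0.23 without it. Members with few counts, such as Adamts3, Adamts20 and Mmp24, rest on at most 56 counts per library.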
